A study of Brassica napus with 18 samples.

Results

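The light-harvesting chlorophyll-binding proteins of oilseed rape (Brassica napus) were taken as every row of the deposited gene table whose Swiss-Prot description names a chlorophyll a-b binding protein, or carries the gene name LHCA or LHCB followed by a digit. The rule found 78 of 108207 genes. By their names they belong to 13 protein types, with 22 genes for the photosystem I antenna (Lhca1 to Lhca6) and 56 for the photosystem II antenna (Lhcb1 to Lhcb7). Of the 78 genes, 35 carry identifiers of A chromosomes, 42 of C chromosomes and 1 is an unplaced gene model. The KEGG annotation in the same table placed all 78 in its antenna protein pathway, which holds 79 rows of the table, and gave the same type as Swiss-Prot for 76 of them. The other 2 are the genes that Swiss-Prot names LHCA6 and KEGG names LHCA2.

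Light-harvesting proteins are nuclear-encoded, are imported into the chloroplast and hold chlorophyll a, chlorophyll b and carotenoids in the thylakoid membrane. In photosystem II, Lhcb1, Lhcb2 and Lhcb3 build the trimers of the major antenna, and Lhcb4, Lhcb5 and Lhcb6 (CP29, CP26 and CP24) are single-subunit antennae between those trimers and the core. In photosystem I, Lhca1 to Lhca4 form a belt on the core, while Lhca5 and Lhca6 are scarce and, in Arabidopsis, join photosystem I to the chloroplast NDH complex. Transcripts of these genes are among the most abundant of a green leaf cell, respond to light and to the circadian clock, and often decline under salt and drought.

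The samples were polyA RNA of plants grown for 3 weeks in Hoagland's solution, in 6 groups of 3 libraries. The first 3 groups were bnagrp3 mutant plants without added NaCl (mock), after 4 h of 200 mM NaCl and after 8 h of 200 mM NaCl. The other 3 were wild-type (WT) plants in the same treatments. BnaGRP3 is a glycine-rich protein. The mutant is 1 line, bngrp3#2, and the labels state neither its allele nor which GRP3 copies it affects. The tissue label says leaf and the extraction notes name the parts above ground. The table heads the mock columns 0h, and time of day and time in NaCl cannot be told apart. No label says whether the 3 libraries of a group come from separate plants, so p-values measure only how these libraries vary, and that variation may be technical.

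The 13 genes named GRP3 or GRP3S together reached 1761 to 2329 TPM in bnagrp3 mock libraries, against 3566 to 3837 TPM in WT mock libraries, and stayed lower in bnagrp3 at both NaCl times. Of the leaf markers, the Rubisco activase genes (RCA) summed to 1975 to 9577 TPM per library and the carbonic anhydrase genes (BCA1) to 522 to 1848 TPM. The GAPA1 genes summed to 246 to 535 TPM. Genes named for the Rubisco small subunits RBCS-1A and RBCS-1B reached at most 2.93 and 37.6 TPM, while the gene named RBCS-3B had 26.8 to 701 TPM. Of the root markers, EXPA7 was listed at 0 in every library and COBL9 and IRT1 stayed at or under 0.46 TPM, while EXPA18 summed to 1.83 to 9.16 TPM and PER3 to 5.27 to 20.7 TPM. Read counts were not used here, so depth is unknown. Each library held 63891 to 67072 genes above 0 TPM.

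The WT libraries were not alike. A set of 323 genes outside the antenna family, picked after values were seen, was at or above 5 TPM in each of the 9 bnagrp3 libraries while 2 or more WT libraries held no more than 0.2 TPM. Over those genes, the median ratio of a WT library to the mean of the like-treated bnagrp3 libraries was 0.232, 0.252 and 0.215 in mock, 0, 0.666 and 0.233 at 4 h, and 0.168, 0 and 0.369 at 8 h. Low ratios in some WT libraries follow from how the genes were picked. The rule does not set which WT libraries are low. Of the antenna genes, 7 with a mean of at least 5 TPM spanned more than 2-fold within a WT group, 3 of them in mock, 7 at 4 h and 6 at 8 h, and 0 did so within a bnagrp3 group. They are BnaA05G0100800ZS, BnaA09G0040000ZS, BnaC02G0001800ZS, BnaC04G0532900ZS, BnaC07G0134500ZS, BnaC07G0134600ZS and BnaC08G0349200ZS. The limit of 5 TPM was set per group, so BnaC02G0001800ZS, with bnagrp3 means below it, could count only in WT. Its bnagrp3 mock libraries varied by 57.6% (SD over mean). Counts of called antenna genes that rest on WT are therefore also given without WT 4 h library 2 and WT 8 h library 3, the highest on the 323-gene ratio. Sums, percents of mock, the other gene lists and most single-gene changes are not given that way.

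Antenna transcripts made up a large share of every library, and that share was smaller in all 12 NaCl libraries than in the 6 mock libraries. The 78 genes summed to 10.2%, 9.72% and 9.78% of all TPM in the bnagrp3 mock libraries, to 5.98%, 5.64% and 5.74% at 4 h and to 5.92%, 5.93% and 5.43% at 8 h. In WT they summed to 8.68%, 8.68% and 8.41% in mock, to 5.28%, 5.65% and 5.17% at 4 h and to 4.84%, 5.26% and 4.87% at 8 h. Mock and NaCl libraries did not overlap in either genotype. The 3 bnagrp3 libraries lay above the 3 WT libraries in mock and at 8 h, and 1 WT library at 4 h lay above 1 bnagrp3 library. In TPM the sum averaged 57876 ± 1737 at 4 h and 57565 ± 2860 at 8 h in bnagrp3, against 98957 ± 2559 in mock (SD, n = 3 each). The WT sum averaged 53661 ± 2539 at 4 h and 49916 ± 2332 at 8 h, against 85875 ± 1560 in mock. The level after NaCl was thus 58.5% and 58.2% of mock in bnagrp3 and 62.5% and 58.1% of mock in WT. Fewer green cells and less antenna RNA per cell cannot be told apart in these bulk libraries. TPM is a share of each library, so a fall of genes this abundant also raises the shares of other genes.

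**Figure D1:**
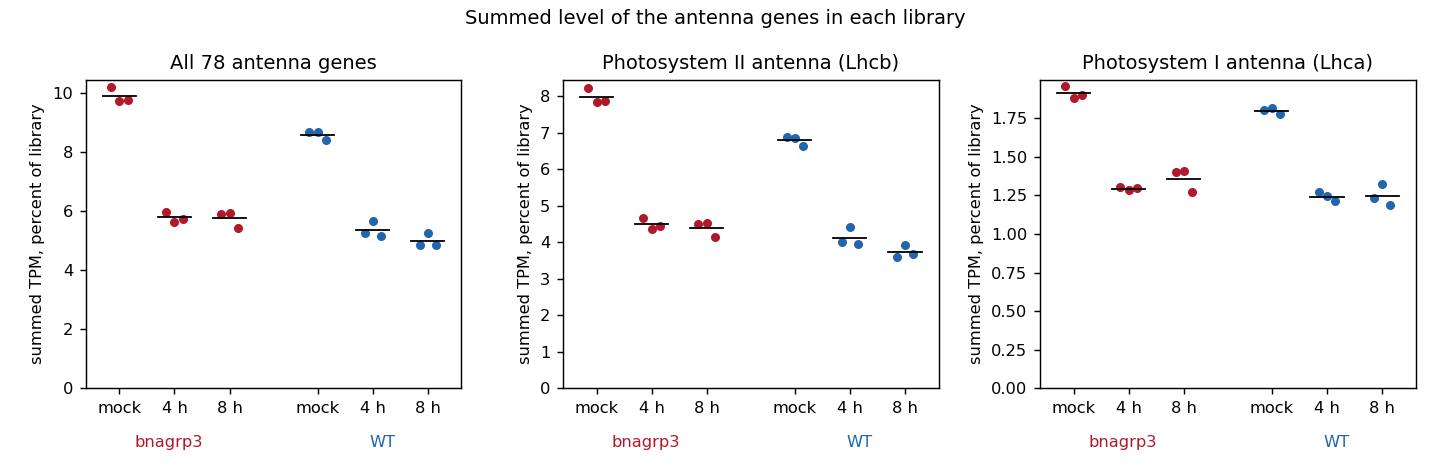
Summed TPM as a percent of each library for all 78 antenna genes, the Lhcb genes and the Lhca genes, with 1 point for each of 18 libraries, bnagrp3 left of WT. Mock libraries stand at 8.41% to 10.2% for all 78 genes, above all NaCl libraries at 4.84% to 5.98%.

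The types did not shrink by the same factor. The photosystem I set as a whole stood at 67.6% of mock at 4 h and 71.0% at 8 h in bnagrp3, and at 69.1% and 69.5% in WT. The photosystem II set stood at 56.3% and 55.1% of mock in bnagrp3, and at 60.7% and 55.1% in WT. Lhca6 was lowest of the 13 types in both genotypes, at 28.3% and 26.3% of mock in bnagrp3 and 31.6% and 23.0% in WT. Lhca5 stood at 41.0% and 38.8% in bnagrp3, against 56.0% and 38.9% in WT, so the pair of scarce linker antennae stood below the 4 belt proteins. Lhcb5 stood at 45.5% and 45.7% in bnagrp3 and at 49.8% and 43.3% in WT, and Lhcb6 at 42.8% and 50.1% in bnagrp3 and at 57.0% and 55.4% in WT. Lhcb1, the largest type with a mock sum of 48374 TPM in bnagrp3 and 39878 TPM in WT, stood at 56.1% and 53.9% in bnagrp3 and at 59.0% and 53.2% in WT. Lhca2 kept the largest share of the 12 types that shrank, at 76.7% and 81.5% in bnagrp3 and at 80.8% at 8 h in WT, while at 4 h in WT it stood at 74.6% and Lhca3 was highest at 76.9%. Lhcb7 alone stood above mock, at 151% and 190% in bnagrp3 and 123% and 139% in WT. No test was made of these sums.

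Single genes were tested with limma on log2(TPM + 1) over all 57923 genes that reached 1 TPM in at least 3 of the 18 libraries, and a gene was called at a Benjamini-Hochberg adjusted p under 0.05. Of the 78 antenna genes, 69 passed the filter and 9 did not: 4 of the 9 were listed at 0 in every library, and the highest value of any of them was 1.59 TPM. Among the 69, 27 averaged at least 1000 TPM and 4 averaged under 5 TPM. Fold changes on this scale understate the change of low genes. The division of reads between near-identical A and C copies is not stated in the sources used here, so values of single copies are uncertain.

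After NaCl, most antenna genes fell in both genotypes. In bnagrp3, 59 of 69 were lower and 1 was higher at 4 h, and 56 were lower and 1 higher at 8 h. Over all genes tested, 52.2% were called at 4 h in bnagrp3, 23.5% as lower and 28.7% as higher, and 49.7% at 8 h, 18.4% as lower and 31.3% as higher. In WT, 56 antenna genes were lower and 2 higher at 4 h, and 54 were lower and 2 higher at 8 h. All genes tested were called at 46.6% in WT at 4 h, 20.5% as lower and 26.0% as higher, and at 46.3% at 8 h, 17.3% as lower and 29.0% as higher. The median log2 fold change of the 69 was -0.73 at 4 h and -0.87 at 8 h in bnagrp3, beside 0.06 and 0.14 for all genes. In WT it was -0.65 and -0.91, beside 0.05 and 0.14 for all genes. With libraries rescaled by median ratios the all-gene median of the 8 h comparisons moved to 0.01, and 8 h values here are to be read relative to that shift.

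The genes called lower were mostly the same in both genotypes. The libraries were separate, but the spread of each gene was estimated over all groups together. A gene that varied widely in WT could thus go uncalled in both genotypes, so the overlap is not an independent check. At 4 h, 55 genes were lower in both, which is 93.2% of the genes lower in bnagrp3 and 98.2% of those lower in WT. At 8 h the 53 shared genes were 94.6% of the bnagrp3 list and 98.1% of the WT list. Of all antenna genes tested, 85.5% were lower in bnagrp3 and 81.2% in WT at 4 h. At 8 h these shares were 81.2% and 78.3%. Lists this long overlap widely in any case, and the excess over that was not tested. Abundant genes were called most often. Of the 27 genes averaging at least 1000 TPM, 26 fell at 4 h and 24 at 8 h in each genotype, while of the 13 genes under 100 TPM 8 fell at 4 h and 9 at 8 h in bnagrp3, against 8 and 8 in WT. Without WT 4 h library 2 and WT 8 h library 3, the WT counts of lower genes were 56 at 4 h and 56 at 8 h.

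**Figure D2:**
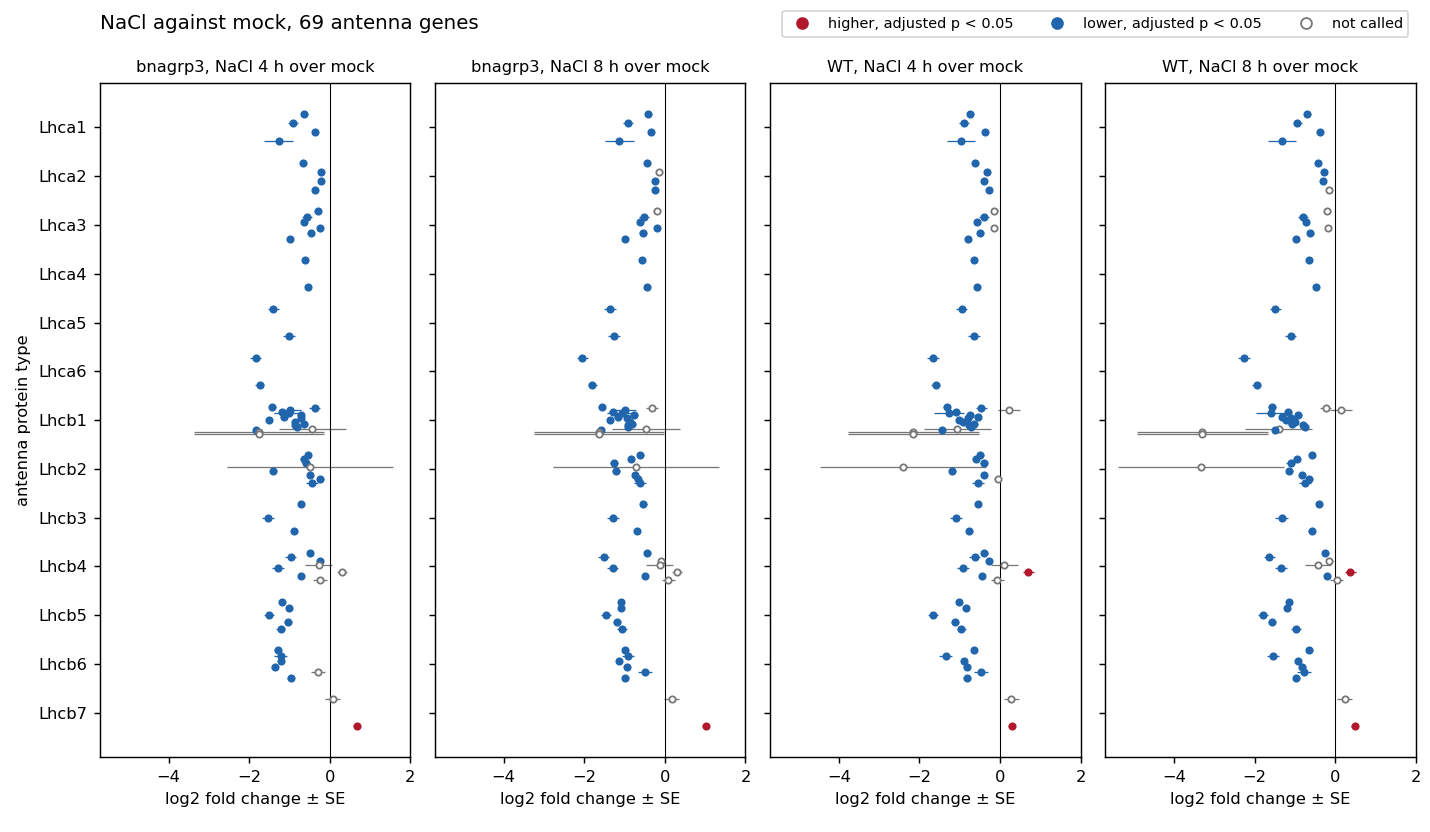
Log2 fold change (NaCl over mock, on the log2(TPM + 1) scale) ± SE of each of the 69 tested antenna genes, grouped by type, in bnagrp3 and in WT. Blue points were called lower, red points higher and open points were not called. The pale open points with long bars in the Lhcb1 and Lhcb2 rows are genes that varied widely among WT libraries.

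The 4 belt antennae of photosystem I fell in both genotypes, by little for Lhca2 and by more for Lhca1. For each type the most abundant gene is described first. The Lhca1 gene BnaA09G0507700ZS had 1377, 1330 and 1354 TPM in bnagrp3 mock libraries, 710, 725 and 720 TPM at 4 h and 775, 739 and 648 TPM at 8 h, and in WT 1706, 1690 and 1715 TPM in mock, 1075, 773 and 921 TPM at 4 h and 892, 1033 and 762 TPM at 8 h. All NaCl libraries lay below all mock libraries of the same genotype. Its log2 fold changes were -0.91 and -0.91 in bnagrp3 and -0.90 and -0.94 in WT (SE 0.115, highest adjusted p = 1.7e-05). The Lhca2 gene BnaC04G0266800ZS changed least of these leading genes, with 1240 to 1313 TPM at 4 h and 1219 to 1270 TPM at 8 h in bnagrp3 against 1426 to 1540 TPM in mock, which are changes of -0.21 and -0.24. In WT it changed by -0.38 and -0.31 (SE 0.0598, highest adjusted p of the 4 comparisons 0.0087). NaCl and mock libraries did not overlap. Its 8 h calls were lost with quantile normalization (-0.18 in bnagrp3 and -0.12 in WT) and its calls in bnagrp3 and at 8 h in WT with only the groups compared (highest adjusted p = 0.12).

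The Lhca3 gene BnaA09G0160400ZS fell by 0.63 at both times in bnagrp3 and by 0.57 and 0.73 in WT on the log2 scale (SE 0.0715), beside a mock mean of 1561 TPM in bnagrp3 and 1316 TPM in WT. The Lhca4 gene BnaC03G0618700ZS, the most abundant photosystem I antenna gene, had 3224 to 3400 TPM in bnagrp3 mock libraries, 2194 to 2332 TPM at 4 h and 2226 to 2550 TPM at 8 h. In WT it had 2873 to 3052 TPM in mock, 1915 to 2132 TPM at 4 h and 2038 to 2220 TPM at 8 h. Its changes were -0.54 and -0.44 in bnagrp3 and -0.56 and -0.49 in WT (SE 0.066). Among the 16 tested genes of Lhca1 to Lhca4, all were lower at 4 h in bnagrp3 and 14 in WT. The 2 that were not called in WT at 4 h are both Lhca3 genes, and each averaged over 700 TPM in every group of that genotype.

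The pair of Lhca6 genes showed the steepest falls at 8 h in both genotypes among the antenna genes that were called and reached 5 TPM. BnaC08G0251300ZS had 112, 114 and 126 TPM in bnagrp3 mock libraries, 33.7, 32.8 and 36.4 TPM at 4 h and 34.8, 35.4 and 29.2 TPM at 8 h. The WT libraries had 87.2, 101 and 111 TPM in mock, 31.4, 34.7 and 30.4 TPM at 4 h and 28.6, 26.3 and 20.8 TPM at 8 h. The highest NaCl library held 36.4 TPM and the lowest mock library 87.2 TPM. The log2 fold changes were -1.74 and -1.80 in bnagrp3 and -1.60 and -1.95 in WT (SE 0.118, highest adjusted p = 5.5e-08). Its A copy BnaA08G0253100ZS averaged 21.6 TPM at 4 h and 18.7 TPM at 8 h in bnagrp3 against 80.0 TPM in mock, and 21.8 and 14.1 TPM in WT against 71.0 TPM in mock, which gave changes of -1.84 and -2.05 in bnagrp3 and of -1.66 and -2.26 in WT (SE 0.145, highest adjusted p = 3.2e-07). The Lhca5 gene BnaA08G0048100ZS had 51.1, 46.8 and 51.8 TPM in bnagrp3 mock libraries, 19.9, 16.1 and 18.8 TPM at 4 h and 21.5, 20.1 and 15.3 TPM at 8 h. Its WT levels were 25.3, 37.4 and 30.5 TPM in mock, 15.4, 16.7 and 14.1 TPM at 4 h and 9.83, 10.3 and 10.8 TPM at 8 h. It fell in both genotypes without overlap, by 1.41 and 1.36 in bnagrp3 and by 0.96 and 1.49 in WT on the log2 scale (SE 0.138, highest adjusted p = 5.0e-05).

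Among the trimer proteins of photosystem II, 14 of 17 Lhcb1 genes fell at 4 h and 13 at 8 h in bnagrp3, against 13 and 12 in WT. The steepest among those named by the largest changes was BnaC05G0256200ZS, with 2042, 2054 and 2100 TPM in bnagrp3 mock libraries, 599, 576 and 570 TPM at 4 h and 717, 685 and 651 TPM at 8 h. WT plants had 1577, 1742 and 1733 TPM in mock, 619, 647 and 593 TPM at 4 h and 570, 662 and 559 TPM at 8 h. The highest NaCl library held 717 TPM and the lowest mock library 1577 TPM. The changes were -1.83 and -1.59 in bnagrp3 and -1.44 and -1.50 in WT (SE 0.0711, highest adjusted p = 7.5e-10). The most abundant Lhcb1 gene over all libraries, BnaA04G0221200ZS, behaved otherwise. It had 4388, 4207 and 4111 TPM in bnagrp3 mock libraries, 3295, 3280 and 3232 TPM at 4 h and 3432, 3489 and 3267 TPM at 8 h. The values in WT were 6552, 6138 and 6100 TPM in mock, 5726, 3473 and 4701 TPM at 4 h and 5138, 6286 and 4688 TPM at 8 h.

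That gene was called lower at 4 h in bnagrp3 (-0.37, adjusted p = 0.035) and WT (-0.46, adjusted p = 0.013) and not at 8 h (-0.32, adjusted p = 0.071 in bnagrp3 and -0.23, adjusted p = 0.19 in WT, SE 0.139). In bnagrp3 its NaCl libraries all lay below its mock libraries at both times, whereas WT 8 h library 2 lay within the mock range. The 4 h call in WT was lost without WT 4 h library 2 (-0.27, adjusted p = 0.055). The 4 h call in bnagrp3 was lost with any 1 of the 3 mock or the 3 4 h libraries of that genotype left out, where the change was -0.39 to -0.35. Under quantile normalization the WT change of BnaA04G0221200ZS turned positive, 0.19 at 4 h and 0.45 at 8 h. The 4 h call in bnagrp3 was lost there (-0.0077, adjusted p = 0.98). Both 4 h calls were also lost without a filter (adjusted p = 0.24 in bnagrp3 and 0.15 in WT). With only the groups compared they were lost too (adjusted p = 0.14 and 0.18). Median-ratio rescaling made the 8 h fall of this gene a call in bnagrp3 (-0.51, adjusted p = 0.0075) and in WT (-0.40, adjusted p = 0.030).

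The 8 Lhcb2 genes, whose protein is with Lhcb1 the substrate of the antenna kinase STN7 in Arabidopsis, fell in 7 cases at each time in bnagrp3, and in 6 at 4 h and 7 at 8 h in WT. The most abundant, BnaC09G0025500ZS, had 1733, 1618 and 1717 TPM in bnagrp3 mock libraries, 1358, 1192 and 1187 TPM at 4 h and 1120, 1167 and 1005 TPM at 8 h. WT libraries held 2133, 2044 and 2088 TPM in mock, 1834, 1143 and 1373 TPM at 4 h and 1195, 1517 and 1053 TPM at 8 h. NaCl and mock libraries did not overlap in either genotype. The changes were -0.44 and -0.62 in bnagrp3 and -0.55 and -0.75 in WT (SE 0.149, highest adjusted p = 0.022). The 4 h call in bnagrp3 was lost without mock library 1 or 3 or without 4 h library 2 or 3 of that genotype, with changes of -0.43 to -0.41. It was also lost without a filter (adjusted p = 0.062) and with quantile normalization (-0.37, adjusted p = 0.065). The 4 h call in WT was lost with only the groups compared (adjusted p = 0.079). All 3 tested Lhcb3 genes, for the trimer subunit that lacks the phosphorylation site of the other two, fell in every NaCl comparison. BnaA10G0105600ZS averaged 1239 TPM at 4 h and 1414 TPM at 8 h in bnagrp3 against 2043 TPM in mock, and 1204 and 1336 TPM in WT against 1758 TPM in mock.

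The single-subunit antennae fell as well, most evenly for Lhcb5. All 5 Lhcb5 genes fell in all 4 NaCl comparisons. The steepest, BnaC02G0368500ZS, had 783, 771 and 840 TPM in bnagrp3 mock libraries, 294, 279 and 270 TPM at 4 h and 311, 304 and 252 TPM at 8 h. Its levels in WT were 882, 1082 and 973 TPM in mock, 327, 323 and 275 TPM at 4 h and 286, 333 and 237 TPM at 8 h. The lowest mock library held 771 TPM and the highest NaCl library 333 TPM. The changes were -1.50 and -1.47 in bnagrp3 and -1.66 and -1.79 in WT (SE 0.12, highest adjusted p = 1.5e-07). The most abundant Lhcb5 gene, BnaA09G0257700ZS, averaged 1458 TPM at 4 h and 1377 TPM at 8 h in bnagrp3 against 2928 TPM in mock, and 1408 and 1101 TPM in WT against 2539 TPM in mock (changes of -1.01, -1.09, -0.85 and -1.20, SE 0.0706).

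Lhcb6, the antenna CP24 of land plants, had 5 of 6 tested genes lower at 4 h in bnagrp3 and all 6 in the other 3 NaCl comparisons. Its most abundant gene BnaC05G0132200ZS had 1511, 1444 and 1570 TPM in bnagrp3 mock libraries, 583, 579 and 591 TPM at 4 h and 829, 827 and 710 TPM at 8 h. In WT it had 953, 1035 and 1020 TPM in mock, 566, 632 and 502 TPM at 4 h and 554, 580 and 573 TPM at 8 h. At 4 h the genotypes overlapped, while in mock and at 8 h all bnagrp3 libraries lay above all WT libraries. The changes were -1.37 and -0.94 in bnagrp3 and -0.83 and -0.82 in WT (SE 0.082, highest adjusted p = 1.4e-06).

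Lhcb4 was the most mixed type, with 5 of 8 tested genes lower at 4 h and 4 at 8 h in each genotype. The most abundant copy, the LHCB4.1 gene BnaA02G0004400ZS, had 1796, 1674 and 1615 TPM in bnagrp3 mock libraries, 1287, 1160 and 1175 TPM at 4 h and 1263, 1296 and 1207 TPM at 8 h. The WT libraries had 1139, 1070 and 901 TPM in mock, 769, 753 and 842 TPM at 4 h and 858, 881 and 871 TPM at 8 h. The bnagrp3 libraries lay above the WT libraries in each treatment. The changes with NaCl were -0.49 and -0.43 in bnagrp3 and -0.39 and -0.25 in WT (SE 0.0825), and the last call was lost without WT mock library 1 or 2 or without WT 8 h library 1 or 3 (-0.25 to -0.17). Under quantile normalization both WT calls were lost (-0.21 at 4 h and -0.04 at 8 h, adjusted p = 0.069 and 0.77), as they were with only the groups compared (adjusted p = 0.065 and 0.16), and the 8 h call was lost without a filter (adjusted p = 0.11).

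The LHCB4.3 gene BnaA05G0061000ZS fell much further. It had 387, 408 and 433 TPM in bnagrp3 mock libraries, 191, 224 and 211 TPM at 4 h and 140, 154 and 134 TPM at 8 h. Its WT levels were 289, 456 and 378 TPM in mock, 249, 235 and 231 TPM at 4 h and 124, 130 and 103 TPM at 8 h. In both genotypes the 3 treatments formed 3 separate ranges. The changes were -0.97 and -1.52 in bnagrp3 and -0.62 and -1.63 in WT (SE 0.134, highest adjusted p = 0.0014). A low LHCB4.3 copy, BnaC04G0571400ZS, was one of the 2 antenna genes called higher in WT (0.70 and 0.37, adjusted p = 0.00055 and 0.032). It stood at 0.54 to 1.91 TPM in all libraries, was not called in bnagrp3 (0.30 at both times, adjusted p = 0.070 and 0.073) and is named here after its values were seen.

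Lhcb7 moved against the family. It is a rare antenna protein whose place is less well known than that of the others. BnaC02G0299600ZS had 15.5, 13.1 and 15.8 TPM in bnagrp3 mock libraries, 22.6, 23.4 and 26.1 TPM at 4 h and 30.5, 32.5 and 29.3 TPM at 8 h. WT plants had 24.7, 22.6 and 22.4 TPM in mock, 28.8, 28.7 and 28.4 TPM at 4 h and 33.4, 34.6 and 30.7 TPM at 8 h. The 3 treatments did not overlap within either genotype, and the order was mock, 4 h, 8 h in both. It rose by 0.66 and 1.01 in bnagrp3 (adjusted p = 8.1e-06 and 1.4e-07) and by 0.29 and 0.48 in WT (adjusted p = 0.0092 and 0.00020, SE 0.082) on the log2 scale. The rise at 4 h in WT was lost with median-ratio rescaling (0.21, adjusted p = 0.066) and with quantile normalization (0.11, adjusted p = 0.32). Its A copy BnaA02G0222200ZS had 2.63 to 5.64 TPM over all libraries and was not called in any comparison.

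**Figure D3:**
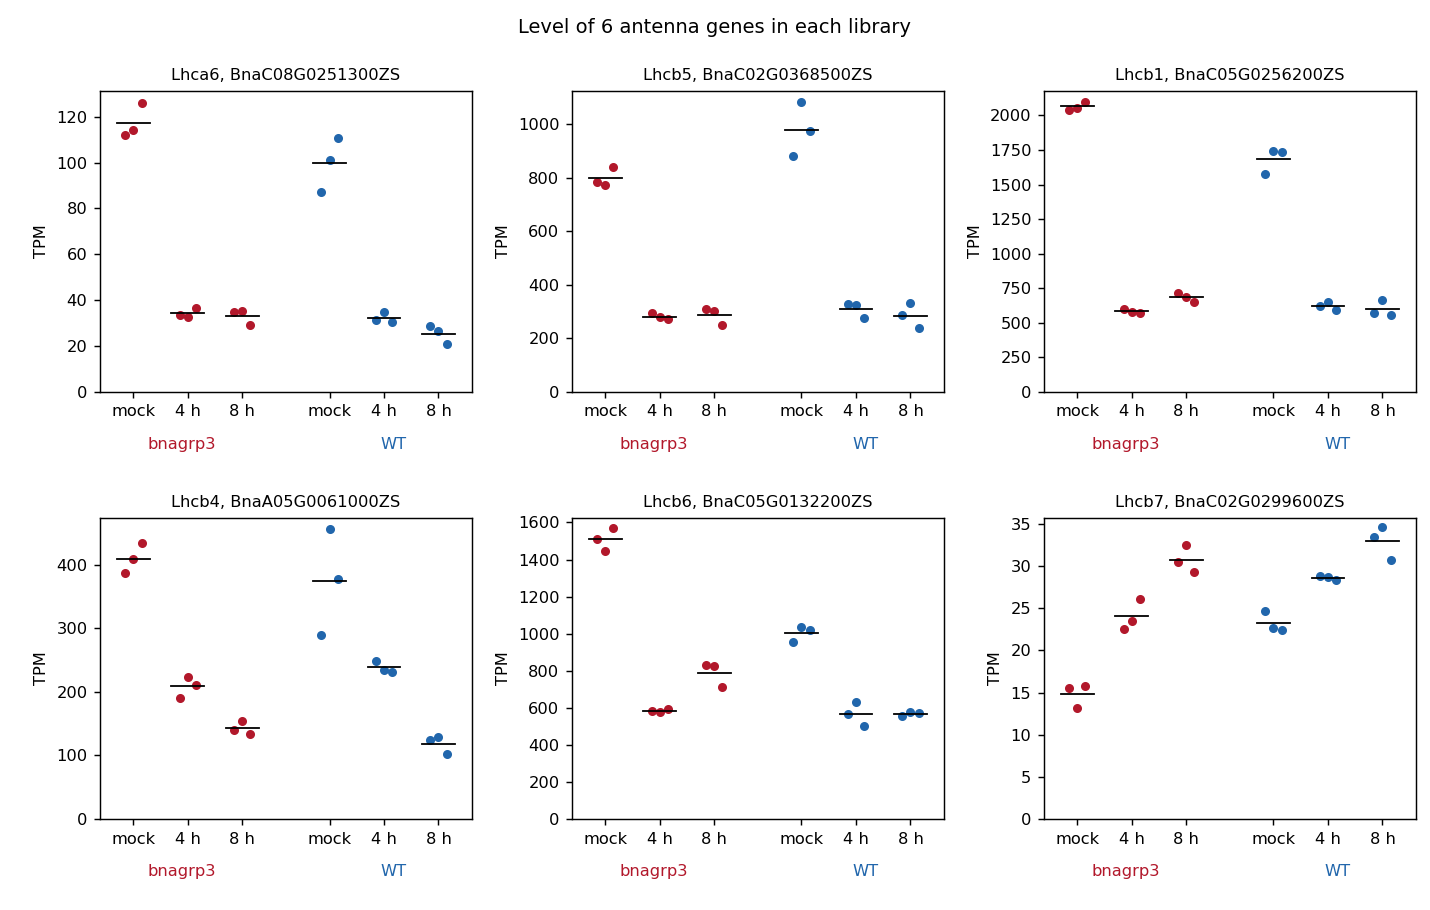
TPM in each of 18 libraries of 6 antenna genes: Lhca6 (BnaC08G0251300ZS), Lhcb5 (BnaC02G0368500ZS), Lhcb1 (BnaC05G0256200ZS), Lhcb4 (BnaA05G0061000ZS), Lhcb6 (BnaC05G0132200ZS) and Lhcb7 (BnaC02G0299600ZS), with bnagrp3 left of WT and lines at group means. The first 5 genes stand lower in every NaCl library than in every mock library of the same genotype, and Lhcb7 stands higher.

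Between 4 h and 8 h most antenna genes were not called, and more were called in WT than in bnagrp3. In bnagrp3, 6 antenna genes were higher and 4 lower at 8 h than at 4 h, where 15.3% of all genes were called, 10.3% as higher and 5.05% as lower. In WT, 2 were higher and 14 lower, where 14.7% of all genes were called, 8.99% as higher and 5.75% as lower. The antenna genes were called at 14.5% in bnagrp3, near the share of all genes, and at 23.2% in WT, 20.3% as lower. These counts shift with the scaling: with median-ratio rescaling 14.3% of the called antenna genes were higher in bnagrp3, against 6 of 10 as analysed, and 0% in WT, against 12.5%. Over all genes the share of calls that were higher was 45.6% in bnagrp3 and 45.5% in WT after rescaling, against 67.0% and 60.99% as analysed. Leaving out bnagrp3 4 h library 2 or 8 h library 3 left 2 lower genes in bnagrp3. The 6 higher genes there became 3 without bnagrp3 4 h library 2 or 3, 2 without 8 h library 1 and 1 without 8 h library 2. Without WT 4 h library 2 and WT 8 h library 3, WT had 8 lower and 0 higher.

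The LHCB4.3 gene BnaA05G0061000ZS fell further from 4 h to 8 h in bnagrp3 (-0.55, adjusted p = 0.013) and in WT (-1.01, adjusted p = 0.00028). Without bnagrp3 4 h library 2 its bnagrp3 call was lost (-0.49, adjusted p = 0.058), as it was without bnagrp3 8 h library 3 (-0.50). The pair of LHCB2.4 genes BnaA06G0381100ZS and BnaC07G0308900ZS showed the same order. BnaA06G0381100ZS had 311, 297 and 261 TPM at 8 h and 524, 442 and 424 TPM at 4 h in bnagrp3 (-0.67, adjusted p = 0.00089), and 338, 424 and 351 TPM at 8 h and 591, 655 and 567 TPM at 4 h in WT (-0.71, adjusted p = 0.00061). BnaC07G0308900ZS averaged 479 TPM at 8 h against 647 TPM at 4 h in bnagrp3 (-0.43, adjusted p = 0.0054) and 495 TPM against 739 TPM in WT (-0.58, adjusted p = 0.00086). In both genes the 8 h and 4 h libraries did not overlap. In WT, BnaA07G0086800ZS (Lhcb1) fell by 0.76 (adjusted p = 9.5e-05), and in bnagrp3 its change was -0.02 (adjusted p = 0.93).

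The rises were small. In bnagrp3 the Lhcb6 genes BnaC05G0132200ZS (0.43, adjusted p = 0.0032) and BnaA06G0106800ZS (0.30, adjusted p = 0.020) and the Lhcb7 gene BnaC02G0299600ZS (0.34, adjusted p = 0.011) were higher at 8 h than at 4 h. In WT the rises were those of the LHCB4.2 gene BnaC05G0507600ZS (0.24, adjusted p = 0.032) and the Lhca2 gene BnaA04G0010100ZS (0.20, adjusted p = 0.026). Each of these 5 calls except that of BnaC05G0132200ZS was lost with median-ratio rescaling, with changes of 0.11 to 0.23. The call of BnaA06G0106800ZS was also lost without bnagrp3 4 h library 2 or 3 or 8 h library 1 or 2 (0.26 to 0.31), and that of BnaC02G0299600ZS without bnagrp3 8 h library 2 (0.31, adjusted p = 0.055). In WT both calls were lost without 4 h library 2 or 3 or without 8 h library 2, and that of BnaA04G0010100ZS also without 8 h library 1 (0.17 to 0.23 for both genes).

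The genotype comparison was made within each treatment. In mock, 20 antenna genes were higher and 6 lower in bnagrp3 than in WT, where 21.5% of all genes were called, 9.1% as higher and 12.4% as lower. At 4 h, 9 were higher and 11 lower, beside 23.6% of all genes called, 9.89% as higher and 13.7% as lower. At 8 h, 20 were higher and 7 lower, beside 23.4% of all genes called, 11.4% as higher. At 4 h the counts depended on the scaling and on single libraries: 61.9% of the called antenna genes were higher with median-ratio rescaling, against 45.0% as analysed, and without WT 4 h library 2 there were 16 higher genes. The 11 lower genes at 4 h became 7 without WT 4 h library 1 or bnagrp3 4 h library 1 or 3, and 6 without bnagrp3 4 h library 2. At 8 h the 7 lower genes became 4 without WT 8 h library 2 or bnagrp3 8 h library 3. Without both WT 4 h library 2 and WT 8 h library 3 there were 19 higher and 10 lower at 4 h and 20 higher and 9 lower at 8 h. The median log2 difference was 0.15, 0.00 and 0.14. Lhcb1 held 9 of the 20 higher genes in mock, and 3 of the 6 lower ones, Lhcb6 held 4 and Lhca1 held 2. The antenna sum in bnagrp3 was 115%, 108% and 115% of WT in mock, at 4 h and at 8 h. The sum of the C-chromosome copies was 127%, 118% and 129% of WT, against 106%, 99.9% and 105% for the A-chromosome copies. The C sum includes BnaC04G0532900ZS, which averaged 5238 TPM in bnagrp3 against 1627 TPM in WT in mock. Its A copy BnaA04G0221200ZS averaged 4235 TPM against 6263 TPM. The contrast of A and C sums therefore includes a division between copies that varied among WT libraries.

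**Figure D4:**
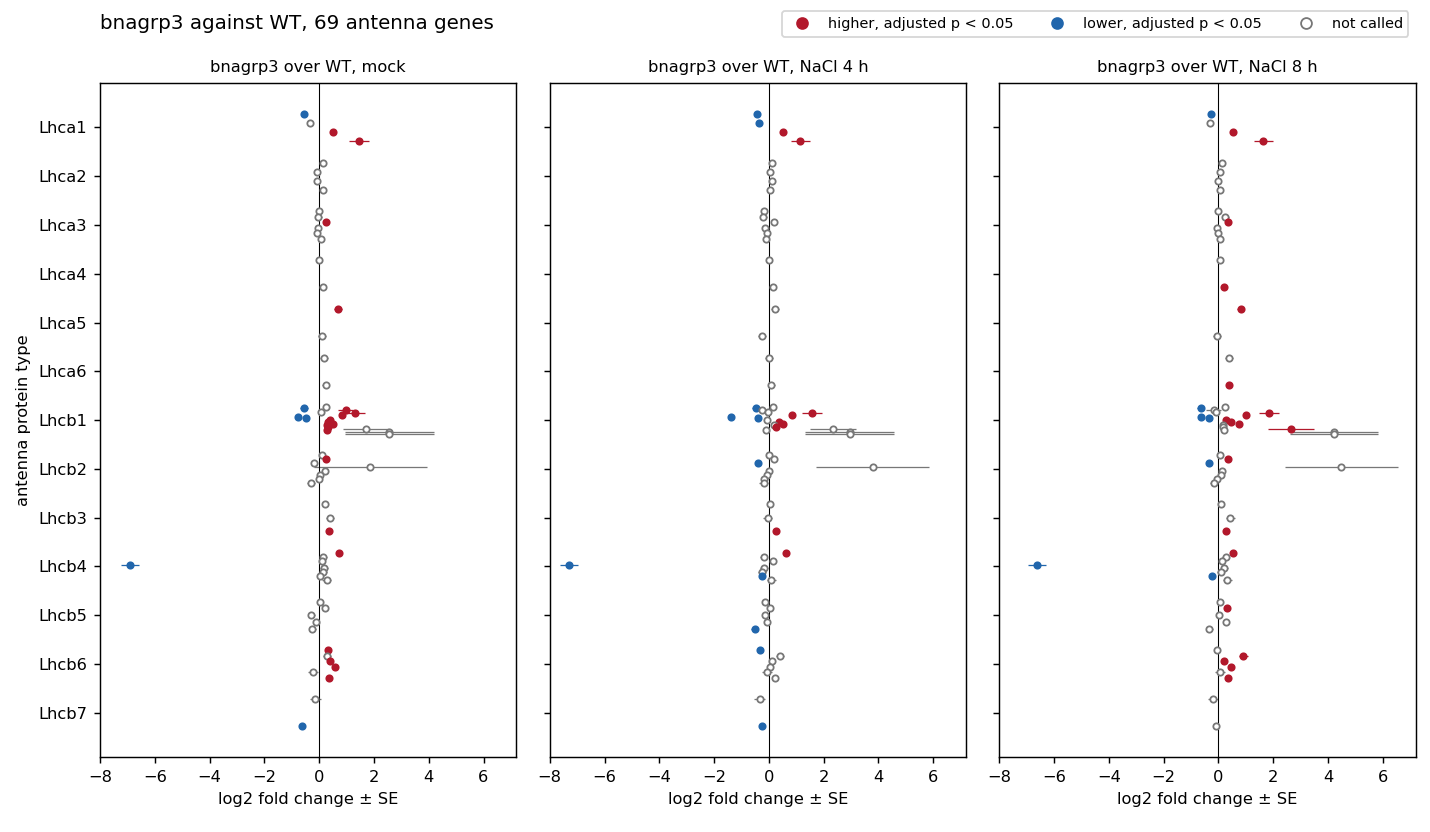
Log2 fold change (bnagrp3 over WT, on the log2(TPM + 1) scale) ± SE of each of the 69 tested antenna genes, grouped by type, in mock, at 4 h and at 8 h of NaCl. Red points were called higher in bnagrp3, blue points lower and open points were not called. The LHCB4.1 gene BnaC02G0001800ZS lies farthest to the left, at -6.92, -7.31 and -6.62.

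The largest difference was an almost complete absence. The C-chromosome LHCB4.1 gene BnaC02G0001800ZS had 1.79, 1.28 and 0.45 TPM in bnagrp3 mock libraries, 0.75, 0.63 and 0.81 TPM at 4 h and 0.92, 1.13 and 0.73 TPM at 8 h. The values in WT were 214, 167 and 453 TPM in mock, 222, 428 and 213 TPM at 4 h and 172, 217 and 178 TPM at 8 h. The lowest WT library stood far above the highest bnagrp3 library. The differences were -6.92, -7.31 and -6.62 (SE 0.333, highest adjusted p = 2.7e-09), and NaCl changed the gene in neither genotype beyond the threshold. Its A-chromosome counterpart BnaA02G0004400ZS was higher in bnagrp3, by 0.71, 0.62 and 0.53 (SE 0.0825, highest adjusted p = 0.00031). The sum of both copies was 1696 TPM in bnagrp3 and 1314 TPM in WT in mock, and over the 3 treatments the C share of it was at most 0.0996% in bnagrp3, against 13.5% to 36.3% in WT.

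Adjacent Lhcb1 genes on A07 moved in opposite directions between the genotypes. BnaA07G0086700ZS had 6179, 6003 and 5936 TPM in bnagrp3 mock libraries and 3408, 3432 and 3246 TPM in WT mock libraries. At 4 h it had 3798, 3473 and 3682 TPM in bnagrp3 against 1690, 2344 and 2057 TPM in WT, and at 8 h 3602, 3660 and 3399 TPM in bnagrp3 against 1841, 1649 and 1876 TPM in WT. It was higher in bnagrp3 by 0.85, 0.86 and 0.99 (SE 0.095, highest adjusted p = 1.9e-05). Its neighbour by identifier, BnaA07G0086800ZS, had 684, 715 and 715 TPM in bnagrp3 mock libraries against 1250, 1059 and 1319 TPM in WT. At 4 h it had 351, 299 and 306 TPM in bnagrp3 against 819, 844 and 801 TPM in WT, and at 8 h 325, 310 and 306 TPM against 467, 533 and 457 TPM. The differences were -0.77, -1.37 and -0.63 (SE 0.087, highest adjusted p = 0.00011). No treatment had overlapping genotypes for either gene.

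Other differences carried the wide WT spread. The Lhca1 gene BnaC08G0349200ZS had 1063, 1077 and 1105 TPM in bnagrp3 mock libraries against 338, 463 and 393 TPM in WT, 439, 456 and 453 TPM against 104, 412 and 192 TPM at 4 h, and 533, 522 and 434 TPM against 164, 107 and 225 TPM at 8 h. All bnagrp3 libraries lay above all WT libraries of the same treatment. The differences were 1.45, 1.15 and 1.64 (SE 0.356, adjusted p = 0.0093, 0.030 and 0.0038). At 4 h the call was lost without WT library 1 (0.68, adjusted p = 0.14), without WT library 3 (1.11) or without any 1 of the 3 bnagrp3 libraries (1.14 to 1.17). The Lhcb1 gene BnaA05G0100800ZS had 1394, 1191 and 1219 TPM in bnagrp3 mock libraries against 510, 619 and 421 TPM in WT, 667, 586 and 643 TPM against 102, 436 and 209 TPM at 4 h, and 626, 646 and 551 TPM against 174, 115 and 236 TPM at 8 h. It was higher in bnagrp3 by 1.31, 1.58 and 1.85 (SE 0.372, adjusted p = 0.021, 0.0069 and 0.0023), and its mock call was lost without WT library 1 or 3 or bnagrp3 library 1 or 3 (1.17 to 1.33).

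For both genes the WT libraries followed the order of the 323-gene ratio at 4 h, with library 1 lowest and library 2 highest, and at 8 h, with library 2 lowest and library 3 highest. In mock, where that ratio spanned only 0.215 to 0.252, BnaA05G0100800ZS followed its order and BnaC08G0349200ZS did not, being lowest in library 1 at 0.312 of the bnagrp3 mean. At 4 h BnaC08G0349200ZS stood at 0.231, 0.916 and 0.426 of the bnagrp3 mean in WT libraries 1, 2 and 3, and BnaA05G0100800ZS at 0.162, 0.690 and 0.330, beside 0, 0.666 and 0.233 for the 323 genes. The widely varying LHCB4.1 gene BnaC02G0001800ZS, nearly absent in bnagrp3, did not follow that order. It stood at 304, 587 and 292 times the bnagrp3 mean at 4 h. At 8 h it stood at 186, 234 and 193 times that mean, highest in library 2, where the 323-gene ratio was 0. The Lhcb1 genes BnaC07G0134500ZS and BnaC07G0134600ZS, which hold identical values in all 18 libraries, were listed at 0 in WT 4 h library 1 and in WT 8 h library 2, the same libraries in which that ratio was 0. What sets this level in WT was not tested.

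In the Lhcb1 and Lhcb2 pairs described next, the spread in WT after NaCl lay between copies more than in their sum. In WT at 4 h, BnaC04G0532900ZS (Lhcb1) had 153, 2862 and 1056 TPM and its like-numbered A copy BnaA04G0221200ZS 5726, 3473 and 4701 TPM. Where one was high the other was low, and their sum varied by 5.09% (SD over mean), against 102% for the C copy and 24.3% for the A copy. The C share of the sum was 2.60% to 45.2% in WT at 4 h, 2.59% to 26.4% at 8 h and 18.6% to 23.6% in mock. In bnagrp3 it was 55.0% to 55.7% in mock and 52.2% to 54.5% at the NaCl times. The sum itself averaged 9473 ± 399 TPM in bnagrp3 against 7890 ± 352 TPM in WT in mock, 7155 ± 116 TPM against 5990 ± 305 TPM at 4 h and 7190 ± 184 TPM against 6257 ± 272 TPM at 8 h.

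The Lhcb2 copies BnaA09G0040000ZS and BnaC09G0025500ZS showed the same pattern with the A copy as the variable one. BnaA09G0040000ZS had 946, 851 and 802 TPM at 4 h in bnagrp3 against 0.09, 726 and 307 TPM in WT, and 759, 763 and 698 TPM at 8 h in bnagrp3 against 116, 0 and 313 TPM in WT. At 4 h the sum of the pair varied by 5.61% in WT, against 106% for the A copy and 24.3% for the C copy. Of 15 like-numbered A and C pairs of one name, these and the LHCB4.1 pair are shown because they spread most, and were chosen after their values were seen. For the C copy BnaC04G0532900ZS the difference between genotypes was 1.70, 2.33 and 2.63 (SE 0.839), and only the last was called (adjusted p = 0.17, 0.058 and 0.034). That call was lost without WT 8 h library 2 (1.70, adjusted p = 0.17), WT 8 h library 1 (2.83) or any 1 of the 3 bnagrp3 8 h libraries (2.61 to 2.64). The A copy BnaA04G0221200ZS was lower in bnagrp3 by 0.56, 0.47 and 0.65 on the log2 scale (SE 0.139, highest adjusted p = 0.024).

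**Figure D5:**
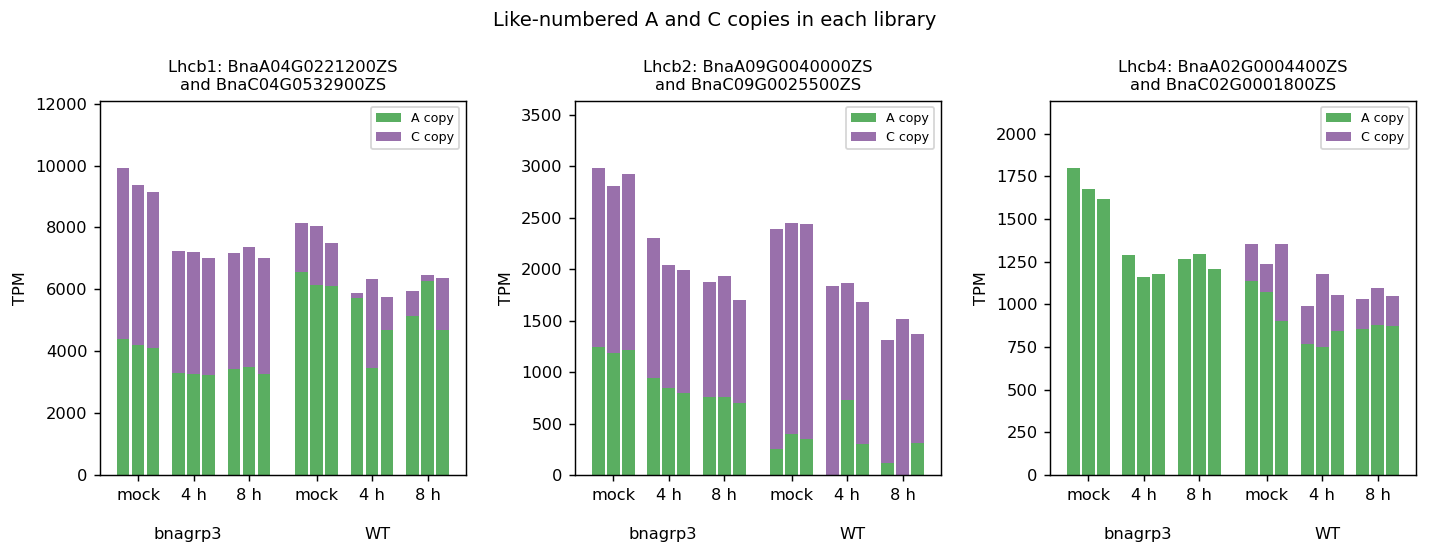
Stacked TPM of the A copy (green) and the C copy (purple) in each library for the pairs BnaA04G0221200ZS and BnaC04G0532900ZS (Lhcb1), BnaA09G0040000ZS and BnaC09G0025500ZS (Lhcb2), and BnaA02G0004400ZS and BnaC02G0001800ZS (Lhcb4), with bnagrp3 left of WT. The split between copies shifts among WT libraries (C share 2.60% to 45.2% for the Lhcb1 pair at 4 h) while the height of the bars stays close.

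The shared estimate of spread also widened the errors of some of these genes in bnagrp3, where their libraries were tight. For BnaC07G0134500ZS and BnaC07G0134600ZS the bnagrp3 mock libraries had 684, 735 and 731 TPM, the 4 h libraries 196, 207 and 230 TPM and the 8 h libraries 267, 228 and 198 TPM. Over all 18 libraries the changes of -1.76 and -1.64 were not called (SE 1.62, adjusted p = 0.40 and 0.44), while a fit on the bnagrp3 groups alone gave adjusted p = 9.3e-05 and 0.00040. For BnaA09G0040000ZS the changes of -0.49 and -0.72 had adjusted p = 0.0097 and 0.0018 in that fit, against 0.88 and 0.82 over all libraries. BnaC04G0532900ZS (adjusted p = 0.15 and 0.16) and BnaC02G0001800ZS (adjusted p = 0.40 and 0.72) stayed without a call in the bnagrp3 fit, and BnaA05G0100800ZS and BnaC08G0349200ZS were called in both fits.

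The response to NaCl itself differed between the genotypes for few antenna genes. At 4 h the difference of the responses (bnagrp3 minus WT) was called for 4 of 69, all further down in bnagrp3, where 2.46% of all genes were called, 1.14% as higher and 1.32% as lower. The largest was the Lhcb6 gene BnaA06G0106800ZS, which had 346, 339 and 322 TPM at 4 h against 839, 808 and 824 TPM in mock in bnagrp3, and 448, 424 and 402 TPM at 4 h against 664, 697 and 626 TPM in mock in WT. It fell by 1.29 in bnagrp3 and by 0.64 in WT, a difference of -0.65 (SE 0.113, adjusted p = 0.0086) that kept its call with each single library left out. The other 3 were BnaA07G0086800ZS (-0.59, adjusted p = 0.023), the second Lhcb6 gene BnaC05G0132200ZS (-0.54, adjusted p = 0.027) and the Lhcb1 gene BnaA09G0414200ZS (-0.47, adjusted p = 0.013), named here after its values were seen. The call of BnaA07G0086800ZS was lost without bnagrp3 mock library 2 or 3 or 4 h library 2 or 3 (-0.58 to -0.55), and that of BnaC05G0132200ZS without WT mock library 1, bnagrp3 mock library 1 or 3 or any 1 bnagrp3 4 h library (-0.55 to -0.50). Without bnagrp3 mock library 3 or bnagrp3 4 h library 2 or 3, 2 of the 69 were called. For 3 of the 4 genes the bnagrp3 level was higher than in WT in mock, and for BnaA07G0086800ZS it was lower.

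At 8 h the difference of the responses was called for 1 antenna gene, higher in bnagrp3, where 1.38% of all genes were called, 0.782% as higher and 0.599% as lower. This was the Lhcb7 gene BnaC02G0299600ZS (0.52, SE 0.116, adjusted p = 0.039). It was lower in bnagrp3 than in WT in mock and at 4 h (-0.62 and -0.25, adjusted p = 9.0e-05 and 0.043), while at 8 h the genotypes overlapped (-0.10, adjusted p = 0.46). The call of the difference was lost with any 1 of 11 libraries left out, which are the 3 WT mock, the 3 WT 8 h and the 3 bnagrp3 8 h libraries and bnagrp3 mock libraries 1 and 2 (0.44 to 0.56). For the other 64 tested antenna genes a difference of the responses was not called at either time, which does not show that they responded alike.

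Genes that act beside the antenna were counted from lists of named genes. Of 67 tested chlorophyll synthesis genes, 54 were lower and 1 higher at 4 h and 53 lower and 4 higher at 8 h in bnagrp3, and 46 lower and 2 higher at 4 h and 48 lower and 3 higher at 8 h in WT. Their median change was -1.04 and -0.91 in bnagrp3 and -0.70 and -0.82 in WT. Among all genes 23.5% and 18.4% were lower in bnagrp3 and 20.5% and 17.3% in WT. The CHLI1 gene BnaA01G0094500ZS, for a subunit of the magnesium chelatase that commits protoporphyrin to chlorophyll, averaged 41.1 ± 4.03 TPM at 4 h and 41.8 ± 5.86 TPM at 8 h in bnagrp3, against 171 ± 15.3 TPM in mock (SD, n = 3 each; -2.03 and -2.02). The GUN4 gene BnaA09G0541000ZS, for an activator of that enzyme, averaged 17.1 ± 5.06 TPM at 4 h and 12.1 ± 0.316 TPM at 8 h in WT, against 55.0 ± 4.78 TPM in mock (-1.67 and -2.09). In mock 22 genes of the list were higher and 4 lower in bnagrp3 than in WT, and 5 had a further fall in bnagrp3 at 4 h by the difference of the responses. The shares over all genes were 9.1% higher and 12.4% lower in mock and 1.32% lower for that difference.

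Chlorophyll breakdown genes changed in the other direction for the most part. Of 38 tested, 23 were higher and 8 lower at 4 h and 22 higher and 6 lower at 8 h in bnagrp3, and 18 higher and 6 lower at 4 h and 18 higher and 8 lower at 8 h in WT. Among all genes 28.7% and 31.3% were higher in bnagrp3 and 26.0% and 29.0% in WT. The lower genes were near the all-gene shares of 23.5% and 18.4% in bnagrp3 and 20.5% and 17.3% in WT. The SGR2 gene BnaC03G0307700ZS, from the STAY-GREEN family of magnesium-removing proteins, averaged 12.8 ± 1.65 TPM at 4 h against 0.603 ± 0.188 TPM in mock in bnagrp3 (3.11) and 13.7 ± 2.00 TPM against 0.723 ± 0.0306 TPM in WT (3.08). In Arabidopsis SGR2 slows chlorophyll loss, unlike its relative SGR1, and the SGR1 gene BnaA08G0128400ZS fell at 4 h in bnagrp3 (-1.23) and in WT (-1.35). The chlorophyllase gene CLH1 BnaA06G0137700ZS averaged 303 ± 100 TPM at 4 h against 20.8 ± 1.05 TPM in mock in bnagrp3 (3.74, adjusted p = 0.0088).

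Genes for the proteins that bring antenna proteins to the membrane fell or were not called. Of 13 import and insertion genes (the chloroplast signal recognition particle, its receptor CPFTSY and the insertase ALB3), 8 fell at 4 h and 9 at 8 h in bnagrp3, against 10 and 10 in WT, and 0 were higher in any of these 4 comparisons, beside 23.5% and 18.4% of all genes lower in bnagrp3 and 20.5% and 17.3% in WT. The CPFTSY gene BnaA04G0288900ZS averaged 5.92 ± 0.372 TPM at 4 h against 18.3 ± 2.34 TPM in mock in bnagrp3 (-1.47) and 9.27 ± 1.72 TPM against 25.3 ± 2.12 TPM in WT (-1.36). Of 6 antenna phosphorylation genes, 4 were higher and 1 lower at each time in bnagrp3, and 4 were higher with 1 lower at 4 h and 2 lower at 8 h in WT. Among all genes 28.7% and 31.3% were higher in bnagrp3 and 26.0% and 29.0% in WT. The STN7 gene BnaA07G0305000ZS, for the kinase of Lhcb1 and Lhcb2, averaged 74.2 ± 2.74 TPM at 4 h against 38.7 ± 1.96 TPM in mock in bnagrp3 (0.92). The STN8 gene BnaC03G0002400ZS, for a kinase of photosystem II core proteins, was nearly absent in bnagrp3, with 0.0667 ± 0.0907 TPM in mock against 20.5 ± 0.512 TPM in WT (-4.34, adjusted p = 3.4e-10). In mock it was the 1 gene of these 6 called lower in bnagrp3 than in WT, and 1 was higher. Among all genes 12.4% were lower and 9.1% higher in that comparison.

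The LHC-like proteins, small relatives with roles in photoprotection and assembly, were split. Of 27 tested, 5 were higher and 11 lower at 4 h and 6 higher and 11 lower at 8 h in bnagrp3, against 5 and 12 at 4 h and 6 and 12 at 8 h in WT. Among all genes 28.7% were higher and 23.5% lower at 4 h and 31.3% and 18.4% at 8 h in bnagrp3. In WT those shares were 26.0% and 20.5% at 4 h and 29.0% and 17.3% at 8 h. Higher genes were thus a smaller share of this list than of all genes. The early light-induced ELIP1 gene BnaC03G0457300ZS averaged 0.547 ± 0.267 TPM at 4 h in bnagrp3 against 44.2 ± 33.2 TPM in WT (-4.60, adjusted p = 1.6e-06). The stress-enhanced SEP2 gene BnaC08G0448600ZS rose in bnagrp3 by 0.92 at 4 h and 1.35 at 8 h. Of 22 tested transcription and signalling factors (GLK1, GLK2, HY5, GATA21, GATA22 and GUN1), 5 were higher and 5 lower at 4 h and 4 higher and 9 lower at 8 h in bnagrp3, against 3 and 8 at 4 h and 1 and 10 at 8 h in WT. In bnagrp3 at 4 h these counts are near the shares over all genes, 28.7% higher and 23.5% lower. The GLK1 gene BnaC07G0006900ZS, for a direct activator of antenna genes in Arabidopsis, averaged 3.82 ± 0.706 TPM at 4 h against 13.9 ± 1.44 TPM in mock in bnagrp3 (-1.64) and 5.26 ± 0.843 TPM against 16.9 ± 1.51 TPM in WT (-1.52). The GLK2 gene BnaC07G0227200ZS was lower in bnagrp3 in mock, with 69.02 ± 2.23 TPM against 304 ± 46.1 TPM in WT (-2.11, adjusted p = 9.1e-05).

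Clock genes and leaf markers were counted in the same comparisons. Of 48 tested clock genes, 10 were higher and 11 lower at 4 h and 16 higher and 10 lower at 8 h in bnagrp3, against 11 and 16 at 4 h and 20 and 12 at 8 h in WT. The shares of all genes called were 52.2% and 49.7% in bnagrp3 and 46.6% and 46.3% in WT. The summed LHY genes, which peak around dawn in Arabidopsis, averaged 8.32, 4.13 and 1.87 TPM in mock, at 4 h and at 8 h in bnagrp3 and 44.5, 22.4 and 9.78 TPM in WT. The summed LUX genes, which peak towards evening, averaged 27.6, 60.8 and 76.4 TPM in bnagrp3 and 18.1, 55.3 and 79.4 TPM in WT. The CCA1 and APRR1 sums did not move steadily with time. The summed CCA1 genes, also of the dawn, averaged 18.04, 26.4 and 11.7 TPM in bnagrp3 and 47.4, 45.3 and 18.5 TPM in WT. The summed APRR1 genes, of the evening, averaged 58.2, 45.2 and 87.2 TPM in bnagrp3 and 39.3, 33.2 and 82.5 TPM in WT. These sums were not tested. The 30 green leaf markers (Rubisco small subunit, Rubisco activase and other leaf enzymes), of which 24 were tested, summed to 8336 to 9569 TPM in mock, 4306 to 4686 TPM at 4 h and 2864 to 3402 TPM at 8 h in bnagrp3, and to 10849 to 12623, 5666 to 6087 and 2979 to 3576 TPM in WT. Of the 24, 14 fell at 4 h and 17 at 8 h in bnagrp3 and 19 and 22 in WT. Among all genes 23.5% and 18.4% were lower in bnagrp3 and 20.5% and 17.3% in WT. The part of time of day, of clock state or of leaf cell content in the antenna changes and genotype differences was not tested.

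Markers of other cell types were few or low. The 4 phloem companion-cell genes named SUC2 summed to 194 to 206 TPM at 4 h and 181 to 200 TPM at 8 h in bnagrp3 against 134 to 153 TPM in mock, and to 191 to 207 and 181 to 185 TPM in WT against 131 to 142 TPM in mock. Of these, 2 were higher and 1 lower at 4 h and 3 higher and 1 lower at 8 h in each genotype. Among all genes 28.7% and 31.3% were higher in bnagrp3 and 26.0% and 29.0% in WT. Of 11 tested guard-cell genes of 20, 3 were higher at 4 h and 4 at 8 h in bnagrp3, against 2 and 0 in WT, with 0 lower, beside 28.7% and 31.3% of all genes higher in bnagrp3, and their sum lay between 47.7 and 82.4 TPM. Of 4 tested shoot meristem genes of 6, 1 was lower at 4 h and 0 at 8 h in bnagrp3, against 2 and 1 in WT, with 0 higher, and their sum lay between 9.58 and 22.7 TPM. Of 34 root and root-hair genes, 20 were listed at 0 in every library and 4 were tested, of which 0 were higher and 1 lower at each time in bnagrp3, against 1 higher and 2 lower at 4 h and 2 higher and 2 lower at 8 h in WT. Beside the meristem and root counts, 23.5% and 18.4% of all genes were lower in bnagrp3 and 20.5% and 17.3% in WT.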

How the data were processed

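The authors deposited 1 table of TPM per gene, a length-corrected share of each library, for 18 polyA RNA libraries. Per the submitters' processing notes the tools were fastp, HISAT2 and featureCounts. Versions, genome build, annotation, strandedness and the handling of reads shared by copies were not given in the sources used here. The deposited TPM values were used without rescaling and without read counts, so depth is unknown and precision was judged from the spread between libraries.

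Genes with at least 1 TPM in at least 3 libraries were kept (57923). Values were analysed as log2(TPM + 1) with limma 3.58.1 in R 4.3.3, with 1 mean for each of 6 groups, an intensity trend and no covariate. The 11 comparisons were two-sided, with Benjamini-Hochberg adjustment over all genes kept. Sums and figures were made with Python 3.11.15, pandas 2.3.3 and matplotlib 3.10.9. The fit was tested on simulated data. A comparison without a block was used because the labels do not say that equal replicate numbers share a source.

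The antenna genes and the 12 other lists were chosen with earlier results of these data known. The rule for names took, per type, the gene with the highest mean, per comparison up to 3 rises and 3 falls among called genes with non-overlapping libraries (for differences of responses without that condition) and at least 5 TPM in a group, and up to 2 of each per other list. BnaC04G0571400ZS, BnaA09G0414200ZS, BnaA02G0222200ZS, BnaA09G0040000ZS, BnaC07G0134500ZS and BnaC07G0134600ZS were added after their values were seen. Promoter sequences and genome positions were not used here. The alternatives were no filter, a filter of 5 TPM, 0.1 as the pseudocount, median-ratio rescaling, quantile normalization, only the groups compared, a replicate block, each library left out, and, added after seeing the data, 2 WT libraries left out.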

Additional observations from a re-analysis of the deposited data

Results flagged for a closer look

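Of the 69 tested antenna genes, 5 had a NaCl response that differed between the genotypes by the interaction test in limma over all genes. At 4 h 5.80% of the antenna genes were called, beside 2.46% of all genes. At 8 h 1.45% were called, near the 1.38% of all genes. Of these, 4 differed at 4 h with a further fall in bnagrp3 (bnagrp3 minus WT, log2 scale): the Lhcb6 genes BnaA06G0106800ZS (-0.65, adjusted p = 0.0086) and BnaC05G0132200ZS (-0.54, adjusted p = 0.027), and the Lhcb1 genes BnaA07G0086800ZS (-0.59, adjusted p = 0.023) and BnaA09G0414200ZS (-0.47, adjusted p = 0.013). All 3 bnagrp3 libraries at 4 h lay below all 3 bnagrp3 mock libraries, as did the WT libraries, for each of the 4 genes. The fifth was the Lhcb7 gene BnaC02G0299600ZS at 8 h (0.52, adjusted p = 0.039), which rose in bnagrp3 and in WT without overlap between 8 h and mock. The calls of BnaA07G0086800ZS and BnaC05G0132200ZS were lost without a filter, with only the groups compared and with several single libraries left out. That of the Lhcb7 gene was lost with most single libraries left out. Without WT 4 h library 2 and WT 8 h library 3 the count at 4 h stayed at 4, with -0.65 for BnaA06G0106800ZS (adjusted p = 0.011), -0.57 for BnaA07G0086800ZS (adjusted p = 0.028) and -0.46 for BnaC05G0132200ZS (adjusted p = 0.032), while the Lhcb7 difference lost its call (0.48, adjusted p = 0.063).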

How the results depend on the processing

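Counts of genes lower after NaCl moved little over the alternatives run: 52 to 59 antenna genes were lower at 4 h and 53 to 60 at 8 h in bnagrp3, and 48 to 57 and 49 to 59 in WT. With 1 library left out the counts were 54 to 58 and 53 to 54 in bnagrp3 and 53 to 55 and 52 to 56 in WT, with 1 to 1 and 1 to 2 higher in bnagrp3 and 2 to 2 and 1 to 2 higher in WT. Higher genes in WT were 1 in place of 2 with a filter of 5 TPM and with median-ratio rescaling at both times, with quantile normalization at 4 h, and at 8 h with only the groups compared and with the 2 WT libraries left out. In bnagrp3 at 4 h 2 in place of 1 were higher with only the groups compared.

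For 8 h against 4 h, WT had 9 lower without a filter, 3 with only the groups compared and 8 with the 2 WT libraries left out, in place of 14. The 2 higher became 0 in these 3 settings, with median-ratio rescaling and with quantile normalization. In bnagrp3 the 6 higher became 3 without a filter, 1 with median-ratio rescaling and 2 with only the groups compared. With 1 library left out the ranges were 2 to 4 lower and 1 to 8 higher in bnagrp3 and 10 to 17 lower and 0 to 3 higher in WT.

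For bnagrp3 against WT, 13 in place of 20 were higher in mock without a filter. At 4 h the 11 lower became 7 without a filter and 4 with only the groups compared, and the 9 higher became 3 with only the groups compared and 19 with the 2 WT libraries left out. At 8 h the 7 lower became 3 without a filter, 4 with quantile normalization and 3 with only the groups compared, and the 20 higher became 13 with only the groups compared. With 1 library left out there were 14 to 19 higher and 6 to 6 lower in mock, 6 to 16 higher and 6 to 11 lower at 4 h, and 15 to 23 higher and 4 to 9 lower at 8 h. For the difference of responses at 4 h the 4 lower became 1 without a filter and 2 with only the groups compared, and 2 to 5 with 1 library left out. At 8 h the 1 higher became 0 with median-ratio rescaling, quantile normalization, only the groups compared, the replicate block and the 2 WT libraries left out, and 0 to 1 with 1 library left out. The groups-only fits held fewer libraries, and the cause of these shifts was not tested.

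With the replicate block the Lhcb7 difference at 8 h kept its size (0.52) and lost its call (adjusted p = 0.067), and no other call of a named antenna gene changed. Same-numbered libraries did not deviate together: in 0 of 15 group pairs were all 3 correlations above 0.1, and they ranged from -0.43 to 0.066. Of 1284 recomputed values of named antenna genes, 1162 kept direction and call, 118 lost the call, 2 gained it and 2 reversed, the last being BnaA04G0221200ZS in WT under quantile normalization (0.19 at 4 h and 0.45 at 8 h). Depth is unknown, so genes near 1 TPM, such as BnaC04G0571400ZS, and the division between copies are the least certain values.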

Other observations

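Like-numbered A and C copies of one type kept different balances, given here as the C share of their summed TPM and chosen after values were seen. The Lhca3 pair BnaA01G0279800ZS and BnaC01G0342600ZS stayed between 45.9% and 48.8% in all 18 libraries. The Lhcb1 pair BnaA03G0165600ZS and BnaC03G0191900ZS moved towards the C copy with NaCl, at 50.4% to 52.7% in mock, 60.1% to 61.9% at 4 h and 62.7% to 64.9% at 8 h in bnagrp3, and at 50.1% to 50.4%, 56.0% to 57.8% and 58.5% to 62.2% in WT. The Lhcb2 pair BnaA02G0345900ZS and BnaC02G0465500ZS moved towards the A copy, at 56.7% to 59.6% in mock, 42.1% to 44.3% at 4 h and 46.3% to 48.1% at 8 h in bnagrp3, and at 52.7% to 58.8%, 42.9% to 44.5% and 45.2% to 46.8% in WT. In both pairs no NaCl library overlapped a mock library of its genotype, and the shares were not tested. The Lhcb5 pair BnaA09G0257700ZS and BnaC09G0303400ZS stood at 34.7% to 39.2% in the bnagrp3 libraries, against 37.8% to 53.4% in the WT libraries.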
